A study of Mus musculus with 30 samples.

Results

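The genes described here are those of fatty acid uptake, intracellular binding, activation, carnitine transfer and beta-oxidation in the mouse left ventricle. They were taken by name: every gene measured whose symbol starts with a prefix of the pathway, among them Acad, Acaa, Acat, Acsl, Acot, Cpt, Crat, Crot, Hadh, Ech, Eci, Fabp, Slc27a, Decr or Etf, plus Cd36 and Lpl. This gave 45 of the 8251 genes tested. The name rule used no measured value. It also took 2 genes whose products do other work, Etf1, a translation release factor, and Etfbkmt, a methyltransferase that acts on the beta subunit of the electron transfer flavoprotein. No measured gene matched Acat or Crot, and Cpt1b, Acsl1 and Hadha were not analysed here.

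The adult heart draws most of its energy from long-chain fatty acids. Lipoprotein lipase frees them from circulating triglyceride, CD36 and the SLC27 transport proteins help them across the membrane, and fatty acid binding proteins carry them in the cytosol. Acyl-CoA synthetases activate them, carnitine transferases move them into mitochondria, and repeated rounds of dehydrogenation, hydration, a second dehydrogenation and thiolytic cleavage shorten them. Electron transfer flavoprotein passes the electrons of the acyl-CoA dehydrogenases to the respiratory chain.

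The study crossed sex, diet and genotype. C57BL/6 mice of either sex were wild type or HCM, an abbreviation that the labels do not spell out and for which they name no mutation, and ate a soy-based or a casein-based diet until 2 months of age. Each of 30 MG_U74Av2 arrays carried left ventricular RNA pooled from 2 animals. Each sex had 4 arrays of soy-fed wild-type, 4 of casein-fed wild-type, 3 of soy-fed HCM and 4 of casein-fed HCM mice, so the 4 combinations of diet and genotype had 8, 8, 6 and 8 arrays. The labels do not say that replicates came from separate litters or cages, so p-values measure the spread between pooled samples.

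Values are log2 expression per probe set as the authors deposited them. Differences are log2 differences with their standard error from 1 limma model over all arrays, averaged over the sexes, and a gene was called higher or lower at a Benjamini-Hochberg adjusted p under 0.05 over the 8251 genes. Of the 9 cardiomyocyte markers measured, 8 lay above 11.5 on every array and Ryr2 lay between 8.51 and 10.19. Of 7 adipocyte markers, Adipoq, Cidec, Ucp1 and Car3 lay below the array's median on all 30 arrays, Retn on 1, and Lep and Cidea on 0.

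The arrays were put into sets by diet and genotype, and the casein wild-type arrays were divided further by their spiked control RNAs. The control Dap measured 7.18 to 8.07 on the 8 casein HCM arrays and 4.03 to 4.70 on the other 22. The hybridization controls divided the casein wild-type arrays into replicates 1 and 2, with BioD above BioC by 1.38 to 1.74, and replicates 3 and 4, with a gap of 0.64 to 0.80. The controls did not separate every set. On soy the gap was 0.99 to 1.39 in wild type and 1.62 to 1.82 in HCM, and both ranges met that of casein wild-type replicates 1 and 2. Since each of the other sets holds 1 combination of diet and genotype, set and group cannot be told apart in the comparisons of diet and of HCM. The male soy wild-type replicate 2 correlated with its group at 0.963 on average, and every other array at 0.984 to 0.997.

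Low values limited what could be read for some members. The 12 members below the array's median on all 30 arrays were Slc27a2, Slc27a5, Fabp1, Fabp2, Fabp4, Fabp6, Fabp7, Fabp9, Acsl4, Acsl5, Acadvl and Etfbkmt. They include binding proteins best known from liver, intestine, adipose tissue, brain and testis. Acadvl, the very-long-chain acyl-CoA dehydrogenase, had a mean of 4.16 on its brighter probe set and 4.07 on the other. Differences of these 12 genes are given as measured, and no detection call was available.

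In wild-type mice most of the oxidation enzymes were higher on casein than on soy. Casein-fed wild-type hearts had 25 of the 45 members higher and 3 lower, where 21.6% of all genes tested were higher and 25.4% lower (47% called in either direction). The median difference of the members was 0.18, against -0.02 over all genes. Among the 33 members outside the low-signal group, 22 were higher and 0 lower. With each array centred on its median, 28 members were higher and 1 lower, and 2482 of 3869 calls over all genes were higher, where the deposited scale gave 1782 of 3876. With quantile normalization added, 20 members were higher and 1 lower, and 1790 of 3606 calls over all genes were higher. Lpl and Cpt2 then turned to -0.05 and -0.08.

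The uptake genes gave 5 higher and 0 lower of 7. Slc27a1, the main fatty acid transport protein of heart and muscle, measured 8.35 to 9.04 on soy (median 8.66) and 8.86 to 9.29 on casein (median 9.11) in wild-type mice. The ranges overlapped, and the difference was 0.44 ± 0.06 (adjusted p = 1.23e-06). Cd36, the scavenger receptor that takes up fatty acids, ran from 7.36 to 8.07 on soy (median 7.81) and from 7.77 to 8.30 on casein (median 8.08), a difference of 0.28 ± 0.08 (adjusted p = 0.0049). Lpl was higher by 0.27 ± 0.07, a direction that turned with quantile normalization. Its second probe set gave -0.12 ± 0.15 and did not pass. Slc27a2 and Slc27a5, both low in signal, were higher by 0.16 and 0.18 and lost their calls in 6 and 10 of the 30 fits that left out an array.

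Among the 8 binding proteins 2 were higher and 1 lower. Fabp3, the heart-type binding protein, had the largest difference of this group. On soy the wild-type arrays ran from 11.02 to 11.47 (median 11.22) and on casein from 11.56 to 12.13 (median 11.92). No casein array overlapped a soy array, and the difference of 0.64 ± 0.06 was a 1.56-fold change (adjusted p = 8.11e-09). Fabp7 was higher by 0.16 ± 0.05 and Fabp6 was lower, at -0.30 ± 0.06, both on low signals. The second probe set of Fabp6 gave 0.03 ± 0.07 and did not pass.

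Of the 13 mitochondrial enzymes 10 were higher and 0 lower, with a median difference of 0.45. Hadhb, which carries the thiolase of the trifunctional protein, lay between 11.50 and 12.04 on soy (median 11.87) and between 12.17 and 12.48 on casein (median 12.36). Hadh, the short-chain 3-hydroxyacyl-CoA dehydrogenase, lay between 10.03 and 10.55 on soy (median 10.28) and between 10.65 and 11.07 on casein (median 10.87). Ech1, an isomerase for dienoyl-CoA intermediates, lay between 11.75 and 12.20 on soy (median 11.90) and between 12.33 and 12.56 on casein (median 12.48). In none of these 3 genes did the diets overlap, and the differences were 0.48 ± 0.06, 0.55 ± 0.07 and 0.52 ± 0.06 (adjusted p = 1.53e-07, 1.86e-07 and 8.42e-08).

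Acad9, an acyl-CoA dehydrogenase that also serves in assembly of respiratory complex I, was higher by 0.67 ± 0.07. Its arrays ran from 6.68 to 7.19 on soy and from 7.41 to 7.95 on casein, again without overlap. The enoyl-CoA isomerases Eci1 and Eci2, needed for unsaturated fatty acids, were higher by 0.48 ± 0.08 and 0.45 ± 0.09, and the medium-chain dehydrogenase Acadm by 0.45 ± 0.07. Acaa2, the mitochondrial thiolase, was higher by 0.36 ± 0.06, Decr1 by 0.37 ± 0.14 and Echs1 by 0.32 ± 0.08. Decr1 lost its call in 5 of the 30 fits that left out an array. Acadl, Acads and Acadvl gave differences of -0.02, 0.05 and 0.03 and did not pass, while the other probe set of Acads was called lower at -0.48 ± 0.11.

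Both peroxisomal thiolases were higher on casein in wild-type mice. Acaa1a showed the largest difference of any member here, 0.76 ± 0.10 or 1.69-fold (adjusted p = 9.61e-07). Its arrays ran from 7.57 to 8.10 on soy (median 7.87) and from 8.09 to 9.0 on casein (median 8.62), so that the ranges overlapped by a narrow margin. Acaa1b was higher by 0.27 ± 0.06. Of the electron transfer genes Etfb was higher by 0.46 ± 0.06, with no overlap between 10.64 to 11.15 on soy and 11.34 to 11.68 on casein. Another probe set of Etfb gave -0.41 ± 0.07 and was called lower. Etfa was higher by 0.26 ± 0.11, a call lost in 11 of the 30 fits that left out an array, and Etfdh gave 0.01 ± 0.10.

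The carnitine genes Crat and Cpt2 were higher by 0.30 ± 0.06 and 0.21 ± 0.06, the latter turned by quantile normalization, and Cpt1a gave 0.10 ± 0.10. Of the 7 activation and thioesterase genes 2 were higher and 2 lower. The thioesterases Acot13 and Acot7 were higher by 0.37 ± 0.07 and 0.36 ± 0.08. The acyl-CoA synthetases Acsl4 and Acsl5 were lower, at -0.33 ± 0.11 and -0.23 ± 0.08, both on low signals and both without a call once arrays were centred on their medians. The second probe set of Acsl4, with a mean of 3.82, gave 0.06 ± 0.05 and did not pass. Without overlap between diets were 6 members, Fabp3, Acad9, Hadh, Hadhb, Ech1 and Etfb, all higher on casein, where 6.01% of all genes had every casein array above every soy array and 5.45% every casein array below.

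**Figure D1:**
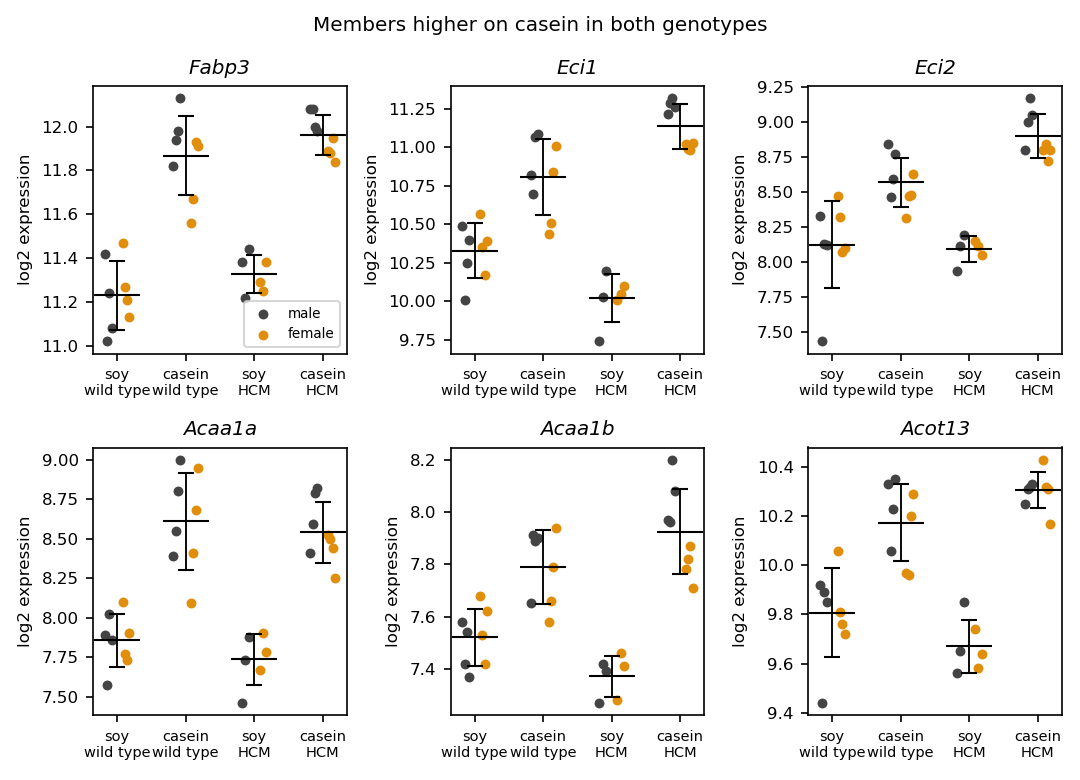
Log2 expression of 6 members on each array, with soy wild type, casein wild type, soy HCM and casein HCM from left to right. Points are arrays (dark grey male, orange female), and the black line and bars are mean and SD over both sexes. All 6 were called higher on casein in both genotypes, and in all 6 every casein HCM array lay above every soy HCM array. Of all genes tested 20.6% were so placed.

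Brighter genes were more often higher on casein, and many members are bright. Counts by level were added after the data had been seen. Of the 288 genes with a mean of at least 10, 75.3% were called higher on casein in wild-type mice, with a median of 0.34. All 11 members at that level were higher, with a median of 0.46. Between 7 and 10, 33.5% of all genes were higher with a median of 0.05, and 11 of 19 members were higher with a median of 0.27. Below 7, 10.8% of all genes and 3 of 15 members were higher.

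The cardiomyocyte markers moved the same way. In wild-type mice 9 of 9 were higher on casein, with a median of 0.39, and their mean level ran from 11.85 to 12.28 on soy and from 12.47 to 12.66 on casein. Endothelial markers were higher in 5 of 8 and lower in 0, and adipocyte markers higher in 1 of 7 and lower in 3. The part of these markers and of signal level in the members' differences was not tested, and in whole tissue fewer cells of a type and less RNA per cell cannot be told apart.

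**Figure D2:**
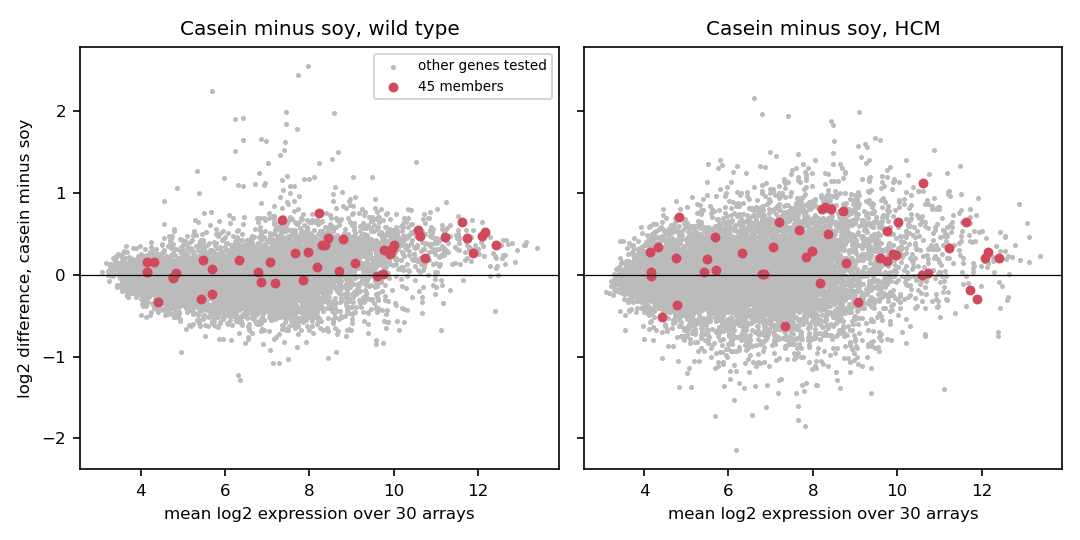
Log2 difference of casein minus soy against mean log2 expression over 30 arrays, in wild-type (left) and HCM mice (right). Grey points are other genes tested and red points the 45 members. In wild-type mice the 11 members with a mean of at least 10 all lie above 0, as do most other genes at that level.

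The array set touched some of these values. In a fit with a coefficient for each set of casein wild-type arrays, added after the data had been seen, replicates 1 and 2 were lower than replicates 3 and 4 in 8 members and higher in 0, where 4.94% of all genes were lower and 7.65% higher. The 8 were Fabp3, Fabp4, Acot9, Acadl, Echs1, Decr1, Eci1 and Acaa1a. Against soy wild type, Acaa1a was higher by 0.51 ± 0.10 with replicates 1 and 2 and by 1.0 ± 0.10 with replicates 3 and 4. Decr1 gave 0.04 ± 0.13 and 0.70 ± 0.13, and Acadl was lower with the former set, at -0.38 ± 0.11, and higher with the latter, at 0.34 ± 0.11. The count of members was 21 higher and 4 lower with replicates 1 and 2, against 17.5% and 19.2% of all genes, and 25 higher and 1 lower with replicates 3 and 4, against 22.7% and 26%.

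In HCM mice casein was again accompanied by higher levels of many members. The largest differences lay partly in other genes, while that of Acaa1a was large in both genotypes (0.76 in wild-type and 0.80 in HCM mice). In this comparison 26 members were higher and 6 lower, where 31.9% of all genes were higher and 30.1% lower (62.1% in either direction). The members' median was 0.22 and that of all genes 0.01. With quantile normalization added, 21 members were higher and 8 lower, and 2578 of 5037 calls over all genes were higher. The values of Cpt2, Hadhb and Etfb then turned to -0.31, -0.08 and -0.08. Without overlap between the diets were 18 members higher on casein and 2 lower, where the shares of all genes were 20.6% and 17.2%.

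Eci1 had the largest difference. Soy HCM arrays ran from 9.74 to 10.20 (median 10.04) and casein HCM arrays from 10.98 to 11.32 (median 11.12). The groups were far apart, and the difference was 1.12 ± 0.09 or 2.17-fold (adjusted p = 1.91e-11). Eci2 ran from 7.93 to 8.19 on soy (median 8.11) and from 8.72 to 9.17 on casein (median 8.82), a difference of 0.81 ± 0.10 (adjusted p = 6.42e-08). Decr1, the dienoyl-CoA reductase that acts beside these isomerases on unsaturated chains, was higher by 0.83 ± 0.15.

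Acads, the short-chain acyl-CoA dehydrogenase, ran from 8.01 to 8.29 on soy (median 8.18) and from 8.66 to 9.35 on casein (median 8.91) in HCM mice. This was a 1.72-fold difference, 0.78 ± 0.08 (adjusted p = 1.62e-09), without overlap. The other probe set of Acads was called lower, at -0.89 ± 0.12, so that the 2 probe sets of this gene disagreed. Acad9 was lower on casein, with arrays from 7.68 to 7.94 on soy (median 7.75) and from 7.05 to 7.29 on casein (median 7.14) and a difference of -0.62 ± 0.07 (adjusted p = 1.57e-08). Acadm was lower at -0.19 ± 0.08, a call lost in 8 of the 30 fits that left out an array. Hadh, which was higher on casein in wild-type mice, gave -0.00 ± 0.07 here.

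The rest of the mitochondrial group moved less. Hadhb was higher by 0.20 ± 0.06, Acaa2 by 0.21 ± 0.06, Ech1 by 0.28 ± 0.07 and Echs1 by 0.24 ± 0.09. Echs1 lost its call without the male soy HCM replicate 1 (adjusted p = 0.0585). With quantile normalization added, Ech1, Echs1 and Acaa2 gave 0.02, 0.02 and 0.06 and were not called. Acadl gave 0.21 ± 0.14 and Acadvl 0.04 ± 0.07, and neither passed.

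Among the binding proteins 7 of 8 were higher on casein in HCM mice and 0 lower. Fabp3 ran from 11.22 to 11.44 on soy (median 11.33) and from 11.84 to 12.08 on casein (median 11.96). Its difference of 0.64 ± 0.07 (adjusted p = 9.48e-09) had the size seen in wild-type mice, and the difference between the genotypes did not pass (adjusted p = 0.994). Fabp1 was higher by 0.71 ± 0.14, Fabp4 by 0.46 ± 0.10 and Fabp7 by 0.34 ± 0.05, all on low signals. Fabp5, the epidermal type, was higher by 0.22 ± 0.05. The adipocyte markers were higher in 4 of 7 and lower in 1, and their part in the values of Fabp4 was not tested.

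The peroxisomal thiolases were higher in HCM mice too. Acaa1a ran from 7.46 to 7.90 on soy (median 7.76) and from 8.25 to 8.82 on casein (median 8.51), with a difference of 0.80 ± 0.11 or 1.74-fold (adjusted p = 5.13e-07). Acaa1b was higher by 0.55 ± 0.06, and neither gene overlapped. Of the thioesterases Acot9 and Acot13 were both higher by 0.64, with standard errors of 0.06 and 0.08, Acot7 by 0.50 ± 0.09 and Acot1 by 0.34 ± 0.09. The second probe set of Acot9 gave -0.08 ± 0.08 and did not pass. Acsl4, low in signal, was lower at -0.52 ± 0.12, while its second probe set gave -0.06 ± 0.06 and did not pass. Crat, which exchanges short acyl groups between CoA and carnitine, was higher by 0.53 ± 0.07, while Cpt1a and Cpt2 gave -0.10 ± 0.11 and 0.02 ± 0.07.

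Uptake was mixed on the casein diet of HCM mice, with 3 of 7 higher and 1 lower. Lpl ran from 11.96 to 12.15 on soy (median 12.09) and from 11.59 to 11.93 on casein (median 11.81), so that every casein array was below every soy array. The difference was -0.29 ± 0.07 (adjusted p = 0.00114), and the second probe set of Lpl gave -1.36 ± 0.16. Cd36 was higher by 0.29 ± 0.09, Slc27a3 by 0.27 ± 0.10 and Slc27a5 by 0.19 ± 0.08. Slc27a3 lost its call without the male or the female soy HCM replicate 3, and Slc27a5 in 5 of the 30 fits. Slc27a1 gave 0.15 ± 0.07 (adjusted p = 0.0536). Of the electron transfer genes Etfb was higher by 0.33 ± 0.07, and Etfa and Etfdh gave 0.26 ± 0.11 and 0.17 ± 0.11. The other probe set of Etfb gave -0.10 ± 0.07 and did not pass.

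Among all genes with a mean of at least 10, 60.4% were higher and 16% lower on casein in HCM mice, with a median of 0.29. The 11 members there gave 7 higher and 2 lower with a smaller median of 0.21. The cardiomyocyte markers gave 7 of 9 higher and 2 lower, with a median of 0.22, and the endothelial markers 2 of 8 higher and 4 lower. The part of these in the members' values was not tested.

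**Figure D3:**
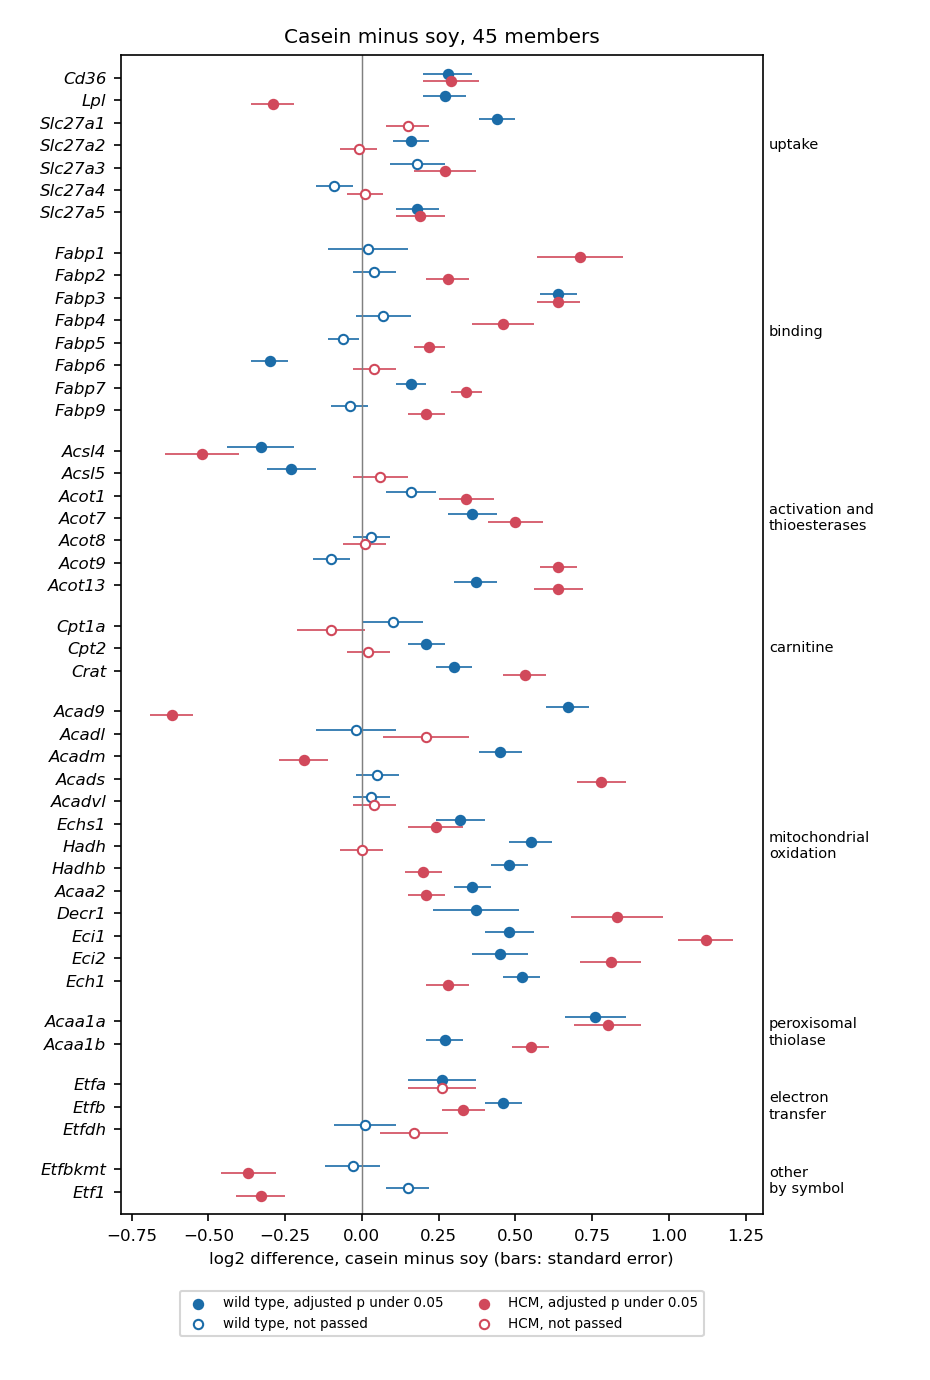
Log2 difference of casein minus soy for the 45 members, grouped by role, in wild-type (blue) and HCM mice (red). Points are limma estimates, bars their standard errors, and filled points passed an adjusted p of 0.05. Eci1 reaches 1.12 in HCM mice, and Acad9, Acadm and Lpl lie above 0 in wild-type and below 0 in HCM mice, apart from Lpl in wild-type mice once quantile normalization is added (-0.05).

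The members called in both genotypes numbered 21. Of these 17 were higher on casein in both, and Acsl4 was lower in both on its brighter probe set only. Lpl, Acad9 and Acadm were higher in wild-type and lower in HCM mice. Of all genes 32.1% were called in both genotypes, 12.4% higher in both, 13.1% lower in both and 6.69% in opposite directions. The 17 include Fabp3, Acaa1a, Acaa1b, Eci1, Eci2, Acot13, Crat and Cd36. The diet comparisons share no arrays, but every casein HCM array belongs to the set with the high Dap control.

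To show what lies at the starts of genes with these patterns, the 250 bases before the RefSeq start (mouse build GRCm38.p6) are shown for Fabp3, Eci1 and Acaa1a, which were higher on casein in both genotypes, for Acadm, which was higher in 1 genotype and lower in the other, and for the transporter Cd36. Capitals mark the motifs searched on both strands: AGGTCA, the core that nuclear receptors such as the PPAR and RXR proteins bind, the GC box GGGCGG and the CCAAT box, CCAAT. A motif on the opposite strand appears as its reverse complement, TGACCT for the first and ATTGG for the last. Fabp3 at chr4:130308488-130308737, Eci1 at chr17:24426433-24426682 and Acaa1a at chr9:119341044-119341293 are on the plus strand. Acadm at chr3:153944644-153944893 and Cd36 at chr5:17835897-17836146 are on the minus strand. The sequences, 5′ to 3′, end at the base before the start that the RefSeq table gives. For Cd36, which spans chr5:17781690-17888959, and Acaa1a, which spans chr9:119341028-119350296, that start lies inside the gene's full span.
Fabp3: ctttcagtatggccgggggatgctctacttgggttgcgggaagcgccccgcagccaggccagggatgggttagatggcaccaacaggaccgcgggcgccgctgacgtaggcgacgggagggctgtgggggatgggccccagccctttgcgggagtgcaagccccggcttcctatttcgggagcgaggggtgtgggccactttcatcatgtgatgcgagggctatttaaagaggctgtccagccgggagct
Eci1: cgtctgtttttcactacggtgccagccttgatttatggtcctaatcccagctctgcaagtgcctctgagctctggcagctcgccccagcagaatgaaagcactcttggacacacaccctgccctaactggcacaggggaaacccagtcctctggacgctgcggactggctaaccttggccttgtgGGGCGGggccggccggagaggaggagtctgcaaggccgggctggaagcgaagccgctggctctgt
Acaa1a: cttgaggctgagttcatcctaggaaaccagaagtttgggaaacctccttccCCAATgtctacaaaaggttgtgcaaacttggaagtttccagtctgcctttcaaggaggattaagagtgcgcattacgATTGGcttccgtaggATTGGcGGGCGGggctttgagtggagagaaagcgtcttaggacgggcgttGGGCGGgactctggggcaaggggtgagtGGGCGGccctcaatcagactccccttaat
Acadm: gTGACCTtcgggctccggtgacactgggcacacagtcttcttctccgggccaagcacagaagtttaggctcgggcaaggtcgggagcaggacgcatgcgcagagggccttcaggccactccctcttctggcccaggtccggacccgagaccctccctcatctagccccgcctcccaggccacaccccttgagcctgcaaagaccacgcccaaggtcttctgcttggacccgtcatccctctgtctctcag
Cd36: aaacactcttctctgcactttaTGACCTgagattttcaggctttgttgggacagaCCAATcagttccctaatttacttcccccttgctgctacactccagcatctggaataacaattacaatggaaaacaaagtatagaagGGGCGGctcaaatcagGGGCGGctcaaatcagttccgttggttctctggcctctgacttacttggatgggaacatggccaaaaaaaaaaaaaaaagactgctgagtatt

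Acaa1a held 3 GC boxes and 3 CCAAT boxes, Cd36 held 2 GC boxes, 1 CCAAT box and 1 AGGTCA, and Acadm held 1 AGGTCA. Eci1 held 1 GC box and Fabp3 none of the motifs. RefSeq windows were found for 34 of the 45 members, 36 windows in all. AGGTCA was in 25% of these windows and in 14% of 32851 windows of the same length over all genes, GGGCGG in 63.9% and 32.7%, and CCAAT in 50% and 33.8%. The direct repeat DR1, which is AGGTCA, any 1 base and AGGTCA again and so contains the first motif, was in 0 of the 36 and in 11 of all windows. These are matches of letters and do not show binding. Of the members with the largest differences with HCM on soy, described next, Acad9 spans chr3:36065979-36092857, Crat chr2:30400476-30416017 and Acads chr5:115110299-115119346 in the same build.

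On soy 5 members were higher and 7 lower in HCM than in wild-type mice, where 12.3% of all genes were higher and 12.7% lower, so that the members' share was close to that of all genes. The median was -0.04, against -0.01 for all genes. With array weights 7 were higher and 13 lower, where 3503 of all 8251 genes were called, 1619 of them higher. With a random block for the array set only Acad9, Crat and Acads passed, and 259 of all genes. Since the sets otherwise follow diet and genotype, this block could be estimated only within casein wild type. It cannot separate set from group. The cardiomyocyte markers were higher in 9 of 9, with a median of 0.27, and the adipocyte markers lower in 4 of 7 and higher in 0. The mean level of 8 endothelial markers ran from 7.46 to 7.99 in wild-type and from 7.99 to 8.12 in HCM mice. Of the 288 genes with a mean of at least 10, 25.3% were higher and 5.56% lower. Of the 11 members at that level 3 were higher and 1 lower. The part of markers and of signal level in the members' values was not tested.

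Acad9 was the member that rose most with HCM on soy. Wild-type arrays ran from 6.68 to 7.19 (median 6.90) and HCM arrays from 7.68 to 7.94 (median 7.75). They did not overlap, and the difference of 0.85 ± 0.07 was 1.8-fold (adjusted p = 3.09e-09). Acadm was higher by 0.37 ± 0.08, Lpl by 0.36 ± 0.07 and Hadh by 0.25 ± 0.07. Lpl's second probe set gave -0.17 ± 0.16, and Hadh was not called with quantile normalization added (0.16). Etf1, the release factor, was higher by 0.24 ± 0.08, a call lost in 7 of the 30 fits that left out an array.

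The lower members on soy were led by Acads. It measured 8.55 to 8.98 in wild-type mice (median 8.79) and 8.01 to 8.29 in HCM mice (median 8.18), a difference of -0.61 ± 0.08 or 1.53-fold (adjusted p = 4.08e-06), while its other probe set gave -0.11 ± 0.12. Crat measured 9.57 to 9.94 in wild-type mice (median 9.75) and 9.14 to 9.36 in HCM mice (median 9.29), a difference of -0.49 ± 0.07 (adjusted p = 1.01e-05). In both genes every HCM array lay below every wild-type array. The second probe set of Crat was also called lower, at -0.21 ± 0.06.

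Fabp1 was lower at -0.49 ± 0.14 on low signals, again without overlap. Eci1 was lower at -0.31 ± 0.09, Acot7 at -0.24 ± 0.09, Fabp5 at -0.23 ± 0.05 and Acot9 at -0.20 ± 0.06. Acot7 lost its call in 25 of the 30 fits that left out an array, and Acot9 without the male soy HCM replicate 1 (adjusted p = 0.0575). The second probe set of Acot9 gave 0.04 ± 0.08 and did not pass. The members free of overlap were Acad9 above and Fabp1, Crat and Acads below, where 4.24% and 4.07% of all genes were so placed. Cd36, Fabp3, Slc27a1, Cpt2, Hadhb, Acaa2, Acadl, Acadvl, Etfa, Etfb and Etfdh did not pass, with differences between -0.17 and 0.23. The male soy wild-type replicate 2 lies in this comparison, and without it 4 members were higher and 11 lower.

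On casein HCM mice had 8 members higher and 13 lower than wild type, where 26.9% of all genes were higher and 22.7% lower (49.6% in either direction). This share too was close to that of all genes, and the medians were -0.02 for the members and 0.01 for all genes. The adipocyte markers were higher in 5 of 7 and lower in 0, the endothelial markers higher in 1 of 8 and lower in 4, and the cardiomyocyte markers higher in 5 of 9 and lower in 2. With a random block for the array set 5 were higher and 8 lower, where 2419 of all genes were called, 1381 of them higher. Lpl, Acadm, Eci2 and Acadl were among those that no longer passed. The balance differed with the set of casein wild-type arrays. In the fit with a coefficient for each set, 14 members were higher and 6 lower against replicates 1 and 2, where 23.8% of all genes were higher and 20.5% lower. Against replicates 3 and 4, 6 members were higher and 15 lower, where the shares were 24.8% and 19.6%.

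Acot9, a mitochondrial thioesterase, was the member that rose most with HCM on casein. Wild-type arrays ran from 6.80 to 7.25 (median 7.06) and HCM arrays from 7.44 to 7.80 (median 7.54), without overlap. The difference was 0.54 ± 0.06 or 1.45-fold (adjusted p = 1.89e-08), and against the higher set of wild-type arrays, replicates 3 and 4, it was 0.42 ± 0.06. A second, dimmer probe set of Acot9 gave -0.04 ± 0.08 and did not pass. Acsl5 was higher by 0.46 ± 0.08 and Fabp6 by 0.35 ± 0.06, both on low signals. The second probe set of Fabp6 gave 0.01 ± 0.07 and did not pass. Eci1 and Eci2 were both higher by 0.33, with standard errors of 0.08 and 0.09. Acadl, the long-chain dehydrogenase, was higher by 0.42 ± 0.13. It was higher by 0.78 ± 0.11 against replicates 1 and 2 and gave 0.07 ± 0.11 against replicates 3 and 4, and Eci1 gave 0.52 ± 0.08 and 0.14 ± 0.08.

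The lower members on casein included both long-chain transfer and core oxidation enzymes. Acad9 measured 7.41 to 7.95 in wild-type mice (median 7.58) and 7.05 to 7.29 in HCM mice (median 7.14), without overlap, a difference of -0.44 ± 0.07 (adjusted p = 2.69e-06). Ech1 measured 12.33 to 12.56 in wild-type mice (median 12.48) and 12.06 to 12.32 in HCM mice (median 12.24), also without overlap, a difference of -0.27 ± 0.06 (adjusted p = 0.000472). Both held against either set of wild-type arrays, Acad9 at -0.47 and -0.41 and Ech1 at -0.23 and -0.32. The members free of overlap were Acot9 above, where 8.77% of all genes lay so, and Acad9 and Ech1 below, where 6.31% did.

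Cpt2, the inner-membrane carnitine palmitoyltransferase, was lower at -0.36 ± 0.06, Slc27a1 at -0.35 ± 0.06, Hadh at -0.31 ± 0.07, Echs1 at -0.30 ± 0.08, Acadm at -0.27 ± 0.07, Crat at -0.26 ± 0.06 and Lpl at -0.21 ± 0.07. The second probe set of Lpl gave -1.41 ± 0.15. Against replicates 1 and 2 alone, in the fit with a coefficient for each set, Hadh gave -0.18, Acadm -0.18, Echs1 -0.14 and Lpl -0.17, and none of these 4 passed. Hadhb and Etfb were lower at -0.15 each, calls lost in 5 and 18 of the 30 fits that left out an array, and another probe set of Etfb was called higher at 0.37 ± 0.07. Fabp3, Cd36, Acaa2, Acadvl, Etfa and Etfdh did not pass. Of the 11 members with a mean of at least 10, 1 was higher and 7 lower, where 37.2% of the 288 genes at that level were higher and 26.4% lower.

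**Figure D4:**
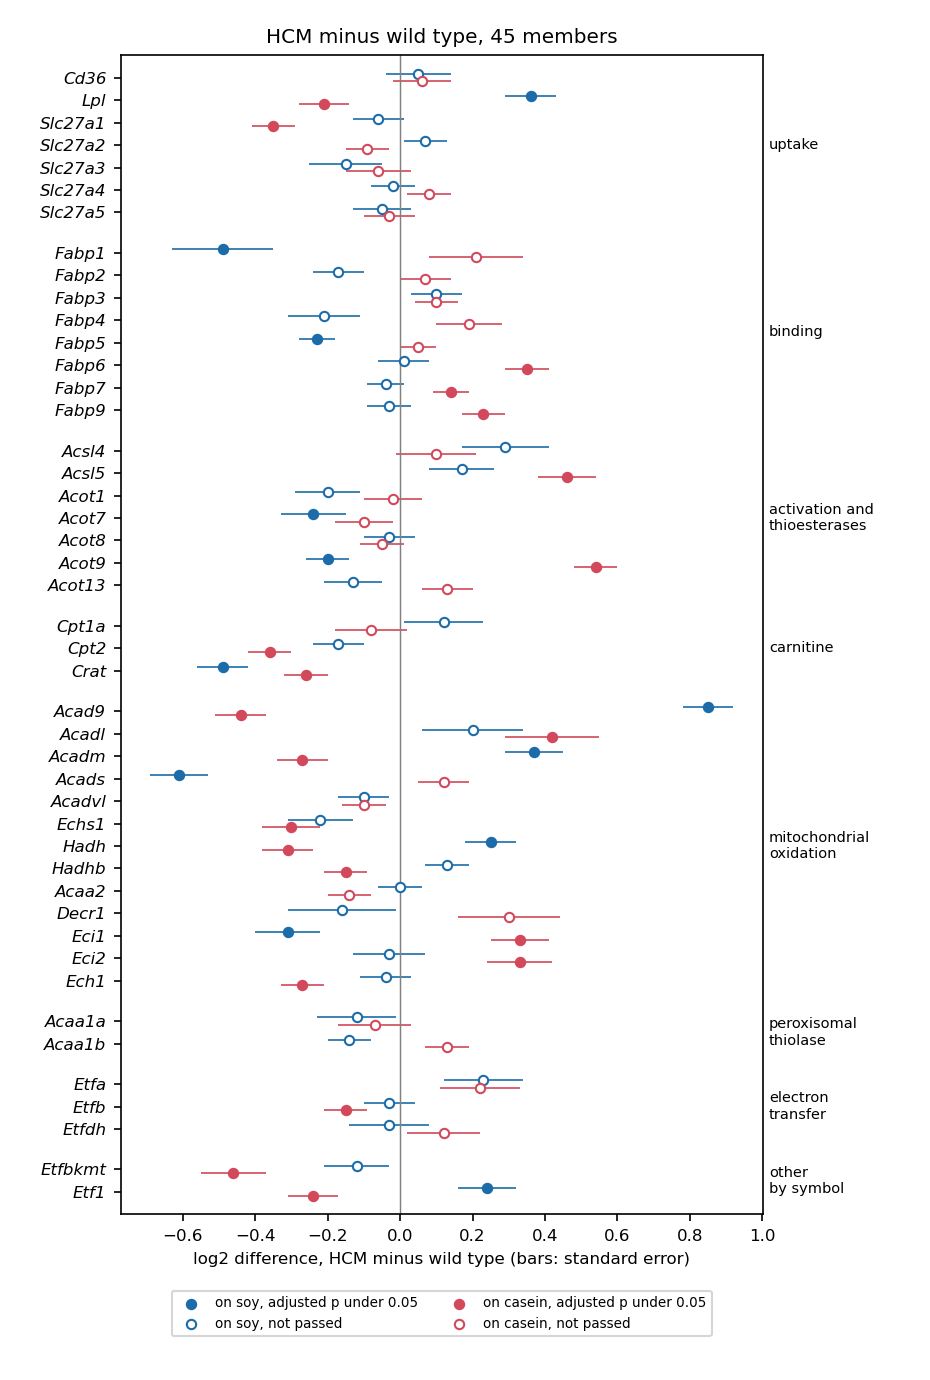
Log2 difference of HCM minus wild type for the 45 members, grouped by role, on soy (blue) and on casein (red). Points are limma estimates, bars their standard errors, and filled points passed an adjusted p of 0.05. Acad9 lies at 0.85 on soy and -0.44 on casein, and Crat lies below 0 on both diets.

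The comparisons of HCM use the same 30 arrays as those of diet, so the 2 kinds of comparison are not independent. Of the 8 members called for HCM on both diets, 7 had opposite directions on soy and on casein. Of all genes 13.8% were called on both diets and 10% in opposite directions. Lpl, Acad9, Acadm, Hadh and Etf1 were higher with HCM on soy and lower on casein, and Eci1 and Acot9 lower on soy and higher on casein. Crat was lower on both. With a random block for the array set, Acad9 and Crat were the 2 members called on both diets, and 1 of them, Acad9, had opposite directions. The interaction, the HCM difference on casein minus that on soy, was called in 23 members, 14 positive and 9 negative, where 25% of all genes were called positive and 20.1% negative. The interaction was -1.29 ± 0.10 for Acad9 (adjusted p = 4.84e-11), 0.74 ± 0.09 for Acot9, 0.73 ± 0.11 for Acads, 0.69 ± 0.19 for Fabp1, -0.64 ± 0.11 for Acadm, 0.64 ± 0.12 for Eci1, -0.56 ± 0.10 for Lpl and -0.56 ± 0.10 for Hadh.

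The binding proteins gave 7 positive calls of 8, and Fabp3 was the exception. All of these but Fabp5 are low in signal, and with a random block for the array set 0 of the binding proteins passed. The mitochondrial enzymes gave 3 positive and 5 negative calls of 13, with Hadhb at -0.29 ± 0.09 and Ech1 at -0.24 ± 0.09 among the negative. Slc27a1 gave -0.29 ± 0.09 and Crat 0.23 ± 0.09. With a random block for the array set Slc27a1, Crat, Hadhb and Ech1 lost their calls, and 8 members and 1867 of all genes passed. Cd36, Cpt2, Acadl, Acaa2, Acadvl, Etfa, Etfb and Etfdh did not pass. Other probe sets of Cd36, Cpt2 and Etfb were called, at 0.27 ± 0.08, -0.44 ± 0.09 and 0.31 ± 0.10, and those of Cd36 and Cpt2 had means of 3.73 and 3.72. The second probe set of Acot9 gave -0.08 ± 0.12. Calls of Fabp2, Fabp7, Acot13, Crat, Eci2, Ech1 and Etfbkmt were each lost in 3 to 16 of the 30 fits that left out an array. With the casein wild-type replicates 1 and 2 alone the calls were 14 positive and 6 negative, and with replicates 3 and 4 alone 9 and 9. Of all 8251 genes 3508 were called with the former, 1906 of them positive, and 3592 with the latter, 1993 of them positive. The other probe set of Acads gave -0.40 ± 0.16 and was called negative.

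**Figure D5:**
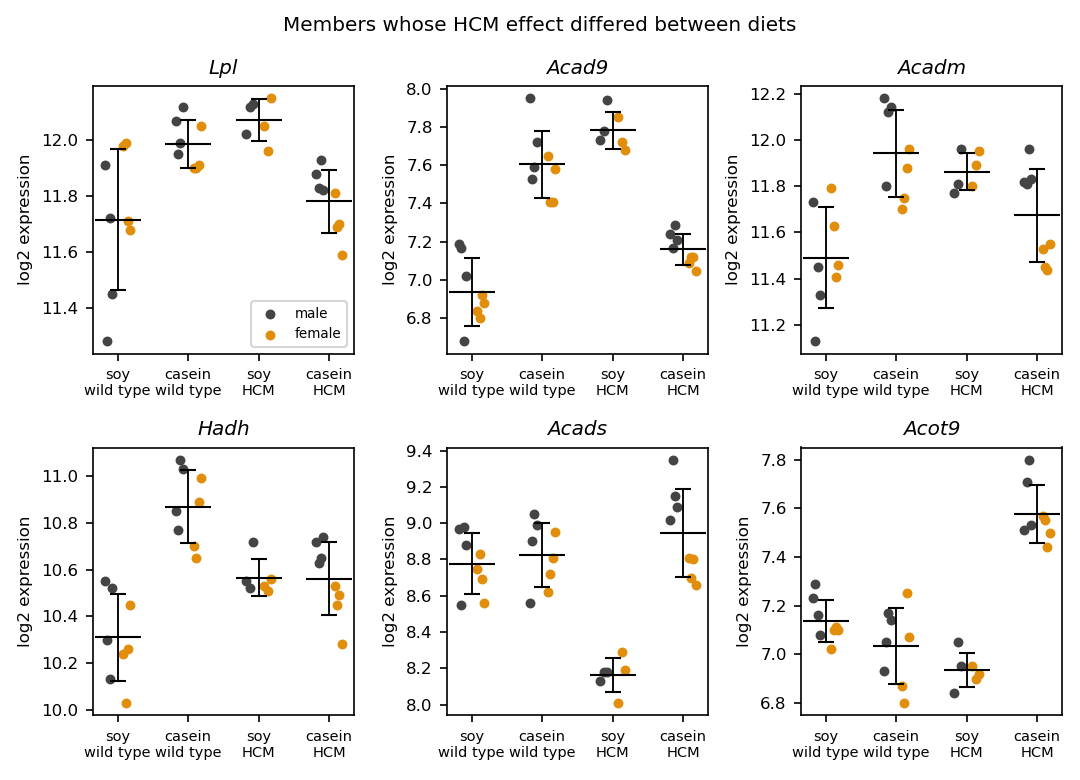
Log2 expression of Lpl, Acad9, Acadm, Hadh, Acads and Acot9 on each array, with soy wild type, casein wild type, soy HCM and casein HCM from left to right. Points are arrays (dark grey male, orange female), and the black line and bars are mean and SD over both sexes. In Acads the soy HCM arrays (8.01 to 8.29) lie below all others, and in Acot9 the casein HCM arrays (7.44 to 7.80) lie above all others.

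Sex made no difference that passed for any member. Between females and males limma called 0 of the 45 members, where 0.267% of all genes were called. An unadjusted p under 0.05 was found in 4 members and in 9.02% of all genes, a similar share. The 4 members were Acads at -0.16 ± 0.05, Acad9, Hadh and Slc27a3 at -0.14, all lower in females, and the smallest adjusted p was 0.32. Array weights gave 1 call, Acads, where 83 of all 8251 genes were called. The interaction of HCM and sex gave 0 calls, where 0% of all genes were called. At an unadjusted p under 0.05 there were 2 members and 4.18% of all genes, a similar share.

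The interaction of diet and sex also gave 0 calls among the members, where 0% of all genes were called. At an unadjusted p under 0.05 there were 17 members, 16 of them negative, which means a smaller casein difference in females, and 14.9% of all genes were under that limit. The smallest adjusted p was 0.187, for Slc27a1 at -0.33 ± 0.09 and Acadm at -0.40 ± 0.11. Slc27a1 in wild-type males had means of 8.54 on soy and 9.14 on casein (SD 0.13 each, n = 4), and in wild-type females 8.78 ± 0.17 and 9.07 ± 0.16 (SD, n = 4). Acadm in HCM males had means of 11.85 on both diets, and in HCM females 11.88 ± 0.08 (SD, n = 3) on soy and 11.49 ± 0.06 (SD, n = 4) on casein. Array weights gave 3 calls, Acadm, Hadhb and Etfa, all negative, where 142 of all 8251 genes were called, 53 of them positive.

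Fitted within each sex, the HCM difference on soy had the same sign in males and females in 37 of 45 members, where 74.7% of all genes did, and that on casein in 39, where 82.1% did. The casein difference had the same sign in 35 members in wild-type mice and in 35 in HCM mice, where 74.6% and 86.7% of all genes did. Among the called members Etfa in wild-type mice and Acadm in HCM mice had opposite signs in the sexes. The median casein difference in wild-type mice was 0.29 in males and 0.12 in females.

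Other genes of fatty acid metabolism outside the name rule were read from a list of 45, of which 33 were measured. In wild-type mice 17 were higher and 1 lower on casein, with a median of 0.33, where 21.6% of all genes were higher and 25.4% lower. The largest were Abcd3, a peroxisomal fatty acyl transporter, at 0.93 ± 0.08, the mitochondrial carrier Ucp3 at 0.58 ± 0.11, Hsd17b10, which dehydrogenates branched short-chain acyl-CoA, at 0.53 ± 0.07, Oxct1 of ketone body use at 0.53 ± 0.11 and Pnpla2, the lipase of stored triglyceride, at 0.52 ± 0.05. The exception was Rxra, a partner of the PPAR receptors, at -0.33 ± 0.06.

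In HCM mice 14 of the 33 were higher and 8 lower on casein, where 31.9% of all genes were higher and 30.1% lower. Ppara, the nuclear receptor that activates many of the genes described here, was lower at -1.78 ± 0.23 (adjusted p = 1.78e-07), the corepressor Nrip1 at -0.97 ± 0.13 and Rxra at -0.56 ± 0.06. Higher were Apoe by 1.17 ± 0.10, Hsd17b10 by 0.78 ± 0.07 and the acyl-CoA binding protein Dbi by 0.67 ± 0.08. With HCM on soy 5 were higher and 3 lower, against 12.3% and 12.7% of all genes, among them the coactivator Ppargc1a at 0.65 ± 0.12 and Abcd3 at 0.58 ± 0.09. With HCM on casein 4 were higher and 10 lower, against 26.9% and 22.7% of all genes, among them Ppara at -1.34 ± 0.21, Gpd1 at -0.69 ± 0.06, the phosphatidate phosphatase Lpin1 at -0.63 ± 0.08 and Mlycd, which degrades the Cpt1 inhibitor malonyl-CoA, at -0.53 ± 0.06. The interaction was called positive in 5 and negative in 10, against 25% and 20.1% of all genes, with Ppara at -1.77 ± 0.31.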

How the data were processed

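Left ventricular RNA was measured on 30 one-colour MG_U74Av2 arrays in 8 groups. The deposited values are log2 expression, which the authors made with RMA in Expression Console from Affymetrix, per the submitters' processing notes. Its version is not given in the sources used here. Of 12488 probe sets, 66 are controls and 10833 had 1 gene symbol in the platform annotation. For each of 8251 genes the brightest probe set by its mean over the 30 arrays was kept. The 45 members have 62 probe sets, and 14 members have several.

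A limma model (R 4.3.3, limma 3.58.1; lmFit, contrasts, eBayes) used all arrays and 1 coefficient for each group, which left 22 residual degrees of freedom beside 6.16 from the prior. All tests were two-sided and adjusted by Benjamini-Hochberg over 8251 genes. The fit was tested on simulated data. The number of arrays limits the precision. The members, lists and tests were chosen with earlier results of these data known. For each comparison the text names up to 8 called members with the largest change, a set of core genes, and up to 6 called genes of the pathway list; others are named where their role is described. Same-numbered arrays were checked for pairing by the correlation of their deviations from the group means. In casein wild type all 4 male-female pairs correlated over 0.1 (0.43, 0.13, 0.35 and 0.52), and in no other set of pairs did all. Alternatives covered probe sets, filters, normalization, weights, a trended prior, a replicate block, array sets and each array left out.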

Additional observations from a re-analysis of the deposited data

Results flagged for a closer look

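In 24 of 270 sets of 4 arrays an array stood apart from the other 3 of its group by Dixon's criterion, which chance meets in about 1 set in 20. The male soy wild-type replicate 2 accounted for 7. It was high in Slc27a2 (4.44, others 4.0 to 4.07), Slc27a3 (6.69, others 6.24 to 6.32) and Acadvl (4.59, others 4.13 to 4.19). It was low in Fabp4 (5.15, others 5.69 to 5.76), Acot13 (9.44, others 9.85 to 9.92), Cpt1a (7.36, others 8.12 to 8.26) and Hadhb (11.50, others 11.84 to 11.90).

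The male casein wild-type replicate 2 was high in Slc27a5 (5.95) and low in Acadm (11.80), Acaa2 (12.57) and Etfdh (9.28), and replicate 1 of that group was low in Acaa1b (7.65). Among female casein wild-type arrays replicate 4 was high in Lpl (12.05) and Acot7 (8.71), and replicate 3 low in Fabp5 (7.78). In females on soy with the wild-type genotype, Acsl5 was high in replicate 2 (6.15), Acot9 low in replicate 1 (7.02) and Acot7 low in replicate 4 (7.60). Among female casein HCM arrays replicate 4 was high in Fabp2 (4.63) and Cpt2 (10.62) and low in Acsl5 (5.79), replicate 3 was high in Slc27a4 (6.94) and replicate 1 high in Acadl (9.96). The male casein HCM replicate 3 was high in Acadm (11.96).

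The HCM difference on casein minus that on soy passed the test in 23 members. It was negative for Acad9 (-1.29), Acadm (-0.64), Lpl (-0.56), Hadh (-0.56), Etf1 (-0.48), Etfbkmt (-0.34), Slc27a1 (-0.29), Hadhb (-0.29) and Ech1 (-0.24). It was positive for Acot9 (0.74), Acads (0.73), Fabp1 (0.69), Eci1 (0.64), Fabp4 (0.39), Eci2 (0.36), Fabp6 (0.34), Fabp5 (0.28), Acaa1b (0.28), Acot13 (0.27), Fabp9 (0.26), Fabp2 (0.24), Crat (0.23) and Fabp7 (0.18). With a random block for the array set 8 members passed, and 1867 of all genes.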

How the results depend on the processing

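Leaving out each array in turn gave 10 to 15 called members for HCM on soy, 19 to 25 for HCM on casein, 25 to 28 for diet in wild type, 30 to 34 for diet in HCM, 19 to 25 for the interaction of HCM and diet, and 0 to 0 for the comparisons of sex. Without the male soy wild-type replicate 2 the counts were 15, 25, 27, 34 and 25. With array weights HCM on soy gave 20 members where the model without weights gave 12, females against males 1, and the interaction of diet and sex 3. With a random block for the array set (consensus correlation 0.167) HCM on soy fell to 3 members, HCM on casein to 13 from 21 and the interaction of HCM and diet to 8 from 23, while diet gave 19 in wild type and 24 in HCM. Over all genes the random block gave 259, 2419, 2256, 3537 and 1867 calls where the model without it gave 2063, 4093, 3876, 5122 and 3718. Array weights gave 3503 calls over all genes for HCM on soy, 83 for females against males and 142 for the interaction of diet and sex. Each set outside casein wild type holds 1 combination of diet and genotype. The block's correlation could therefore be estimated only from casein wild-type replicates 1 and 2 against 3 and 4. Applied to all groups, it cannot separate set from group. The cause of the shifts with array weights was not tested. With the replicate number as a block the counts were 10, 21, 28, 32 and 21, and 0 for sex. Correlations of same-numbered arrays ran from -0.57 to 0.63 over 43 pairs, with 12 over 0.1. Only between the sexes of casein wild type were all 4 pairs over 0.1, and females against males had 0 calls with and without the block.

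Directions turned in 14 instances. A refit counted if it reversed the sign and either fit called the gene, and another probe set if called in the opposite direction. Other turns of sign were not counted. Among these were the second probe sets of Lpl with HCM on soy (-0.17) and of Acot9 for diet in HCM (-0.08), neither called. Adding quantile normalization moved the casein difference in wild type to -0.05 for Lpl and -0.08 for Cpt2, and in HCM to -0.31 for Cpt2 and -0.08 for Hadhb and for Etfb. Using the casein wild-type replicates 3 and 4 alone moved Acadl to 0.34. Other probe sets of the same gene gave -0.89 (diet in HCM) and -0.40 (interaction) for Acads, 0.37 (HCM on casein) and -0.41 (diet in wild type) for Etfb, and 0.59 (HCM on casein), 0.61 and 0.25 (diet in HCM) and 0.51 (interaction) for Etf1. The cause was not tested. Leaving out the dimmest 40% of genes also removed 12 members, leaving 33. Fitting only the groups compared was not distinct for interactions and sex, and leaving out the casein HCM arrays left only HCM on soy (10 members) and diet in wild type (24).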

Other observations

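Probe sets of 1 gene did not always move together. Of the 17 other probe sets of the 14 members that have several, 7 were called in the same direction as the brightest probe set for diet in HCM and 3 in the opposite direction. Etf1 has 5 probe sets, which for diet in HCM gave -0.33, 0.61, -1.10, 0.25 and -0.17. Both probe sets of Crat were lower with HCM on either diet, at -0.49 and -0.21 on soy and -0.26 and -0.21 on casein. Both probe sets of Acadvl were dim, with means of 4.16 and 4.07.

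Markers of further cell types were also counted. Of 3 atrial markers 2 were lower on casein in wild type and 2 lower with HCM on soy, and 2 were higher on casein in HCM and 2 higher with HCM on casein. Of 6 macrophage markers 1 was higher and 4 lower on casein in wild type, and 1 higher and 2 lower on casein in HCM. Of 6 fibroblast markers 1 was higher and 2 lower on casein in wild type, and 3 higher and 1 lower with HCM on casein. Of 7 skeletal muscle markers 4 were higher and 2 lower on casein in HCM. Of 5 liver markers 0 were higher and 2 lower on casein in wild type, and 1 higher and 2 lower on casein in HCM. The part of any of these in the members' values was not tested.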
